A study of Homo sapiens with 12 samples.

Results

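Matricellular and elastic fiber genes were examined by name in the count table: the 10 genes THBS1, THBS2, SPARC, TNC, POSTN, FBN1, FBN2, FBLN1, LOX and LOXL2, out of 56269 genes counted. All 10 were found, and 9 of them passed the filter on low counts and were tested. The RNA came from HEYA8, an established human ovarian cancer cell line, kept at steady state in serum-containing growth medium and not treated. There were 12 libraries in 4 groups of 3. The control vector cells carried the vector without a betaglycan construct. The ∆GAG-BG cells carried betaglycan (BG, the type III TGF-β receptor encoded by TGFBR3) in which serines 534 and 545, the attachment sites of its glycosaminoglycan (GAG) chains, were both changed to alanine. The S534A cells (CS-BG) and the S545A cells (HS-BG) carried betaglycan with only the named serine changed, which leaves mainly chondroitin sulfate or mainly heparan sulfate chains respectively. Each construct was expressed from a lentivirus in cells sorted by its dTomato reporter, a sorted population rather than a clone, and nothing in the labels says that libraries of a group came from separate cultures. The p-values therefore measure the spread between these libraries, which may be technical.

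Matricellular proteins are secreted into the extracellular matrix, where they modulate how cells adhere and respond to growth factors rather than bear load. Elastic fibers are built on microfibrils of fibrillin, which also hold latent TGF-β complexes, and lysyl oxidases cross-link elastin and collagen outside the cell. Several of these genes are well known TGF-β responsive genes, and betaglycan presents TGF-β to the signaling receptors or, once shed, sequesters it. The comparisons below ask whether the GAG attachment sites left on betaglycan go with different levels of these matrix genes.

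Some facts about the libraries precede the values. Libraries held 16410001 to 29504297 counts in total. A count of 0 allows up to 3 counts, which is 0.102 to 0.183 CPM (the counts of a gene scaled to the size of its library), for counting error only. TGFBR3 itself was at 259 and 259 CPM in libraries 2 and 3 labelled control vector and at 20.3 and 21.4 CPM in libraries 2 and 3 labelled ∆GAG-BG, which goes against those labels, while library 1 of each (15.9 and 260 CPM) goes with them. Libraries 2 and 3 were nearly alike in S545A, in ∆GAG-BG and in control vector (chi-square over its degrees of freedom 1.40, 1.95 and 1.43, against 16.5 to 74.8 for the other pairs within a group). Pairs from different groups ranged from 3.87 (S534A 1 with S545A 1) to 120 (S534A 2 with ∆GAG-BG 1). Some libraries were therefore closer to a library of another group than to others of their own. The title of the third S545A library names a different change from its genotype label, and it was used as S545A. Of 9 epithelial markers 7 were tested, led by KRT7 (745.7 to 1140 CPM), and CDH1 and MUC16 had 0 counts in all 12 libraries. Of 8 fibroblast markers 3 were tested, DCN and LUM had 0 counts throughout, and their summed level was 8.98 to 21.6 CPM. All 4 endothelial markers were tested, summing to 175 to 448 CPM, most of it CDH5. Of 4 leukocyte markers 0 were tested, and CD3E was at 0.

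Upstream sequences are shown for THBS1 and TNC, because their levels differed between libraries in the ways described below. They are the bases before the RefSeq start site (GRCh38.p14) that lie outside the annotated gene, 250 bases of the plus strand for THBS1 (chr15:39580829-39581078) and 150 bases of the minus strand for TNC (chr9:115118258-115118407), read 5′ to 3′. Capitals mark the letters CAGAC, the core of a SMAD binding element.

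THBS1: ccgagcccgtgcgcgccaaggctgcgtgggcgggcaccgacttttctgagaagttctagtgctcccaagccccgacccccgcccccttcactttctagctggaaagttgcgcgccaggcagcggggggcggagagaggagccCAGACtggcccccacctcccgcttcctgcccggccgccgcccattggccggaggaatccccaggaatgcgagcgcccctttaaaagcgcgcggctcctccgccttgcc
TNC: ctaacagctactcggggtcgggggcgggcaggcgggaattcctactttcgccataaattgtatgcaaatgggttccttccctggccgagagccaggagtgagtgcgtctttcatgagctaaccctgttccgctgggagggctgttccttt

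These letters were searched on both strands of the 250 bases before each RefSeq start, and 9 of the 10 members, all but LOXL2, had an entry. The TATA box, searched as TATAAA, and the AP-1 element, searched with any base at its center as TGANTCA, were treated likewise. CAGAC occurred in the windows of THBS1, THBS2, TNC, POSTN, FBLN1 and LOX, the TATA box in those of THBS2 and POSTN, and the AP-1 element in that of POSTN. The SMAD core was 108 bases before the start of THBS1, on the strand of the gene. In TNC it was 70 bases before the start, on the strand opposite the gene, which is the plus strand of the chromosome. That stretch of TNC lies inside the annotated gene and is not printed. In windows of this length, 38% of 35116 promoters held the SMAD core, 10.7% the TATA box and 6.57% the AP-1 element, and a match describes the sequence only. The windows of SPARC and FBN1 held none of the 3, nor did that of FBN2, whose RefSeq start lies 120940 bases inside the counted gene. The starts of SPARC, FBLN1 and FBN1 lie 250, 645 and 879 bases inside, so their windows also lie wholly inside the counted genes. LOX, with 3 windows, had more sequence in which a match could occur.

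Levels can be compared between genes only per length, as TPM (counts divided by gene length and scaled to a common sum), averaged here over the 12 libraries. SPARC, a collagen-binding glycoprotein, was at 330 TPM and LOXL2, a lysyl oxidase family enzyme, at 312 TPM. SPARC was above LOXL2 in 7 of 12 libraries, so their order is not settled. TNC, tenascin C, followed at 212 TPM, and FBN2, fibrillin 2, at 88.3 TPM. FBLN1, fibulin 1, a protein of basement membranes and elastic fibers, was at 29.02 TPM, THBS1, thrombospondin 1, which can activate latent TGF-β, at 26.4 TPM, and LOX, lysyl oxidase, at 23.7 TPM. FBLN1 was above THBS1 in 9 of 12 libraries and THBS1 above LOX in 6 of 12, so these neighbours do not differ beyond their spread. FBN1, fibrillin 1, was at 13.8 TPM and thus below FBN2 in all 12 libraries. THBS2, thrombospondin 2, was at 0.749 TPM, with 18 to 42 counts per library. POSTN, periostin, a matricellular protein typical of fibroblasts, had at most 1 count in any library, under the limit of 3 counts, and was not tested.

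**Figure D1:**
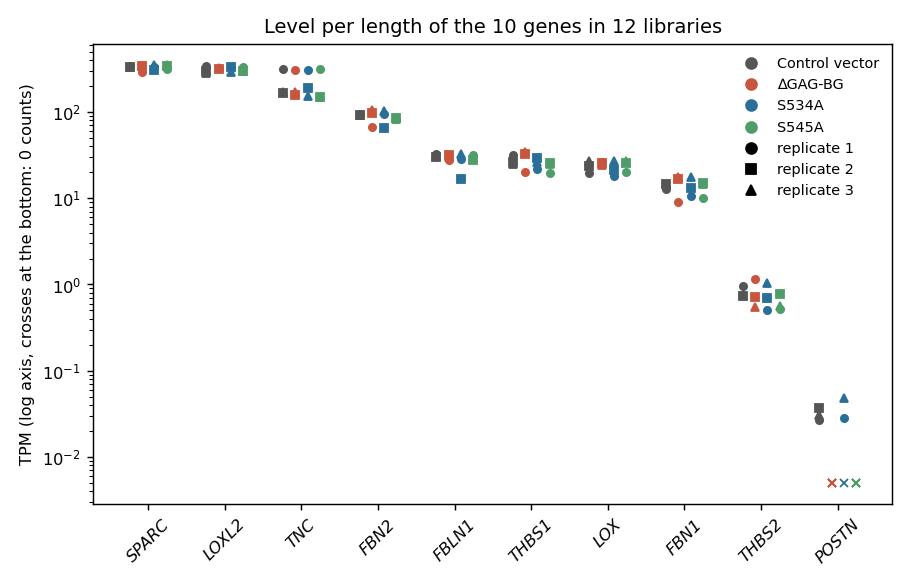
Level per length (TPM, log axis) of the 10 genes in each of 12 libraries, colored by group and shaped by replicate number, in the order of their means. SPARC and LOXL2 lie at the top near 330 and 312 TPM, and crosses mark libraries in which POSTN had 0 counts.

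No member passed edgeR's quasi-likelihood test in any of the 6 comparisons among the 4 groups, either at an adjusted p under 0.05 or at an unadjusted p under 0.05. The background over the 16069 genes tested was 0% at the adjusted threshold in all 6 comparisons. At the unadjusted threshold it was 4.78% (768 genes) for S545A against S534A, 2.99% (481) for S534A against ∆GAG-BG, 1.10% (177) for S545A against ∆GAG-BG, 0.871% (140) for ∆GAG-BG against control vector, 3.45% (554) for S534A against control vector and 1.05% (168) for S545A against control vector. The 0 of 9 members called is read against these shares, under which few or none of 9 genes would be called. DESeq2 also called 0 members, and over all genes it called 1, 5, 0, 0, 2 and 0 at its adjusted threshold in the same order. The median log2 fold change of the 9 members lay between -0.10 (S545A against control vector) and -0.02 (∆GAG-BG against control vector), where the median of all genes tested lay between -0.0066 and 0.0078. In the paragraphs that follow, CPM values are scaled by TMM and listed in the order of libraries 1, 2 and 3, and a log2 fold change is the first group named minus the second.

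**Figure D2:**
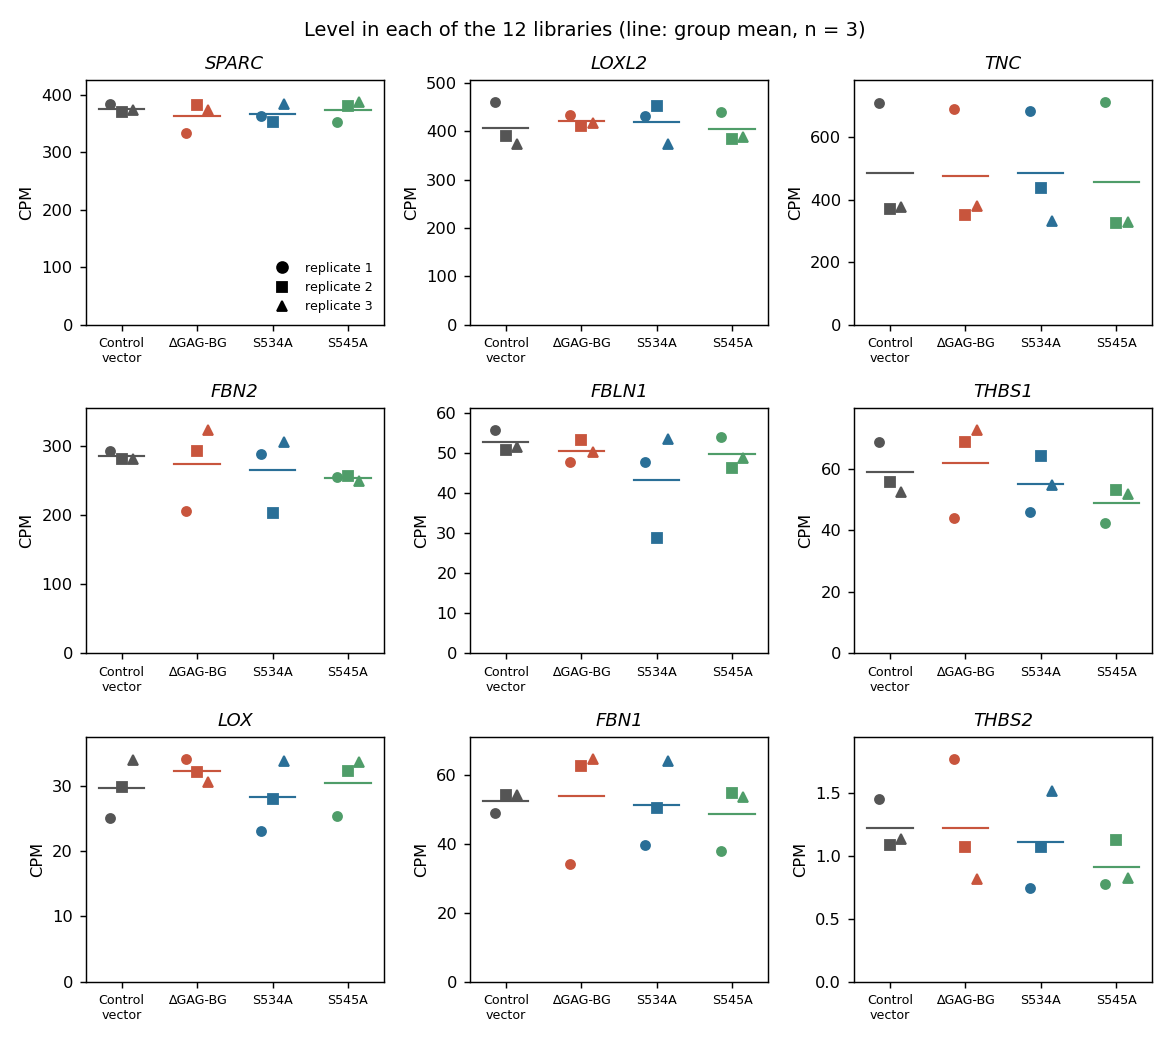
TMM-scaled CPM of the 9 tested genes in each library, by group, with a line at the group mean (n = 3) and every axis starting at 0. The libraries of replicate 1 stand apart for TNC (685 to 713 CPM) and FBN1 (34.1 to 48.9 CPM), and the group means differ little beside that.

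Among the matricellular members, SPARC (chr5:151661096-151687165, minus strand) was the steadiest. It was at 384, 371 and 373 CPM in control vector, 333, 383 and 374 in ∆GAG-BG, 364, 354 and 385 in S534A, and 353, 381 and 388 in S545A. All 4 groups overlapped, and the lowest library was ∆GAG-BG 1. Its within-group SD on the log2 scale was 0.0724, and only 5.09% of genes tested had a smaller one. Across the 6 comparisons its log2 fold change lay between -0.05 and 0.04, and the 95% intervals lay between -0.22 and 0.22. A difference of more than 1.17-fold either way lies outside all of these intervals. They take the labels as given and count nearly alike libraries as separate ones, so they may be too narrow. An antisense gene shares 381 bases (7.89%) of the exon length of SPARC, and whether counting used strand is not stated.

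TNC (chr9:115019578-115118257, minus strand), which opposes firm adhesion to fibronectin, varied far more within groups than between them. It was at 710.5, 372 and 378 CPM in control vector, 692, 353 and 379 in ∆GAG-BG, 685, 437 and 331 in S534A, and 713, 327 and 327 in S545A. In every group library 1 was the highest, at 685 to 713 CPM over the 4 libraries against 327 to 437 CPM in the 8 others, with no overlap. The within-group SD was 0.562 on the log2 scale, larger than that of 98.4% of genes tested. The log2 fold changes between groups lay between -0.10 and 0.03, with intervals reaching from -0.97 to 0.91. The replicate number was also entered as a block, which takes the gap of library 1 out of the error. For S545A against control vector the SE of TNC was then 0.106 in place of 0.4002. The log2 fold change was -0.13 (unadjusted p = 0.255 by edgeR), so TNC was not called there either. No label says that the numbers pair libraries. What replicate 1 stands for is not stated in the labels, and its part in the TNC levels was not tested. How many of all genes tested split in this way by replicate number was not counted, so the split is not shown to be particular to TNC.

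THBS1 (chr15:39581079-39599466, plus strand) was at 68.9, 55.6 and 52.4 CPM in control vector, 44.2, 68.8 and 72.5 in ∆GAG-BG, 46.1, 64.3 and 54.9 in S534A, and 42.3, 53.0 and 51.9 in S545A. The groups overlapped in all 6 comparisons. The mean was 61.8 ± 15.4 CPM (SD, n = 3) in ∆GAG-BG and 49.1 ± 5.87 CPM (SD, n = 3) in S545A. That difference, a log2 fold change of -0.33 (SE 0.187, 95% interval -0.74 to 0.075), had the smallest p of any member in any comparison, 0.101 unadjusted by edgeR and 1.00 adjusted. The two-sided exact permutation test gave 0.3, where 3 against 3 libraries cannot give less than 0.1.

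In THBS1 the libraries of the ∆GAG-BG and control vector groups split as they did in TGFBR3, in the opposite direction. The 3 libraries highest in THBS1 were ∆GAG-BG 3, control vector 1 and ∆GAG-BG 2, with 72.5, 68.9 and 68.8 CPM, and they had TGFBR3 at 21.4, 15.9 and 20.3 CPM. The other 9 libraries had THBS1 at 42.3 to 64.3 CPM and TGFBR3 at 259 to 574 CPM. These are values side by side, noticed in the data, and no test was made because libraries chosen by a measured value are not groups of the study. ∆GAG-BG 2 and 3 are nearly alike (chi-square over its degrees of freedom 1.95). How many of all genes tested separate the same 3 libraries from the other 9 was not counted. The comparisons that use the labels depend on these libraries. Libraries 2 and 3 of the ∆GAG-BG and control vector groups were left out in an alternative because TGFBR3 goes against their labels, which leaves 1 library in each of those groups and takes its spread from the other groups. The log2 fold change of THBS1 for ∆GAG-BG against control vector was then -0.66, for S545A against ∆GAG-BG 0.15, for S534A against ∆GAG-BG 0.32 and for S545A against control vector -0.51. All 12 libraries gave 0.07, -0.33, -0.17 and -0.27 in the same order, so the first 3 of these directions turned. Without ∆GAG-BG 1, the only ∆GAG-BG library whose TGFBR3 goes with its label, THBS1 was lower in S545A than in ∆GAG-BG (-0.52, unadjusted p = 0.00717 by edgeR) and in S534A than in ∆GAG-BG (-0.35, unadjusted p = 0.0465). With only libraries 2 and 3 of every group it was higher in ∆GAG-BG than in control vector (0.38, unadjusted p = 0.00446). None of these had an adjusted p under 0.05. In that fit the pairs of ∆GAG-BG, control vector and S545A libraries are the nearly alike ones, while S534A 2 and 3 differ most of all pairs within a group.

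**Figure D3:**
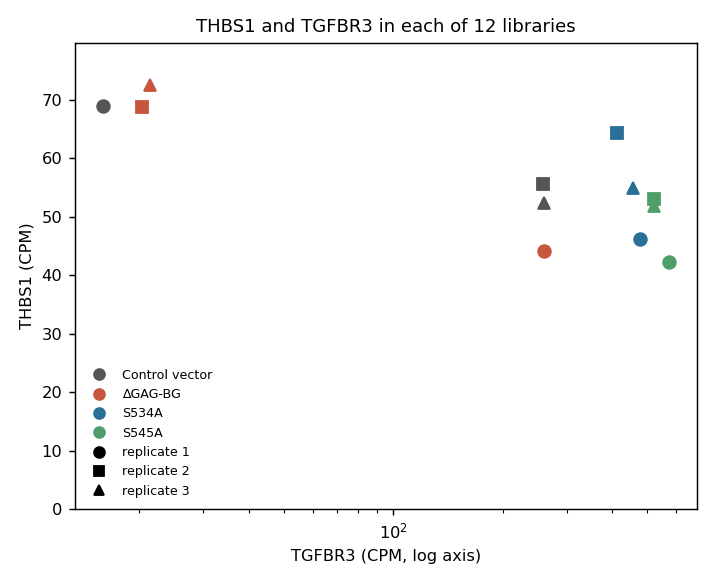
THBS1 against TGFBR3, both in CPM with TGFBR3 on a log axis, for each of 12 libraries colored by labelled group and shaped by replicate number. The 3 libraries with TGFBR3 at 15.9 to 21.4 CPM have THBS1 at 68.8 to 72.5 CPM, and the other 9 lie at 42.3 to 64.3 CPM.

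THBS2 (chr6:169215780-169254044, minus strand) stayed between 0.747 and 1.77 CPM, with the highest value in ∆GAG-BG 1 and the lowest in S534A 1. Its log2 fold changes ran from -0.45 (S545A against control vector, unadjusted p = 0.197 by edgeR) to -0.02, and its intervals reached from -1.17 to 0.69. At 18 to 42 counts the intervals extended up to 0.74 either side of the estimate on the log2 scale, among the widest of the members. POSTN had 1 count in each control vector library and in S534A 1 and 3, and 0 in the other 7.

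Of the microfibril members, FBN1 (chr15:48408306-48645849, minus strand) was at 48.9, 54.2 and 54.1 CPM in control vector, 34.1, 62.7 and 64.6 in ∆GAG-BG, 39.6, 50.4 and 64.1 in S534A, and 37.9, 54.6 and 53.6 in S545A. It was lowest in library 1 of every group, at 34.1 to 48.9 CPM against 50.4 to 64.6 CPM in the others, with no overlap, the opposite of TNC. The log2 fold changes between groups were -0.14 to 0.04, with intervals from -0.66 to 0.56. Over the 12 libraries the Pearson correlation of FBN1 with TNC was -0.85, which describes 4 libraries on one side and 8 on the other and carries no p. For FBN1, as for TNC, the share of all genes tested that split by replicate number was not counted.

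**Figure D4:**
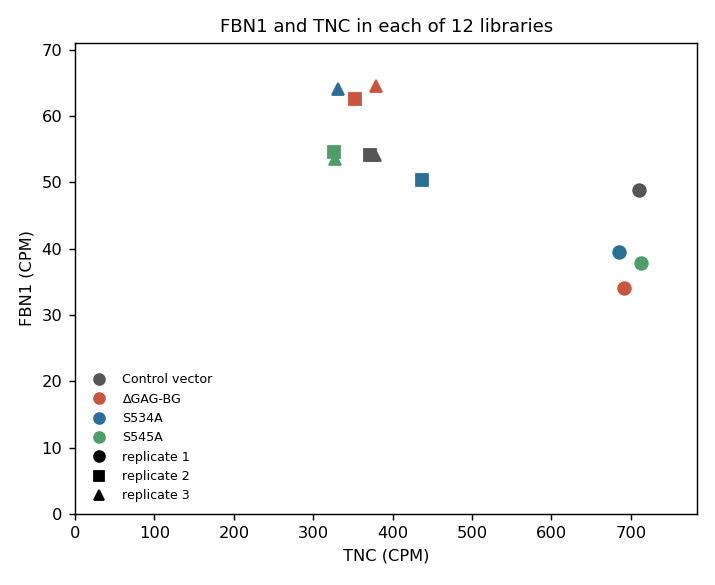
FBN1 against TNC in CPM, both axes from 0, for each of 12 libraries colored by group and shaped by replicate number. The 4 replicate 1 libraries lie together at high TNC and low FBN1, and the 8 others, of all 4 groups, at 327 to 437 CPM of TNC.

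FBN2 (chr5:128257909-128659185, minus strand), the fibrillin best known from developing tissue, was at 294, 282 and 281 CPM in control vector, 207, 294 and 323 in ∆GAG-BG, 288, 204 and 307 in S534A, and 256, 258 and 249 in S545A. Of the 54 pairings of 9 members with 6 comparisons, groups did not overlap in 1, FBN2 in S545A against control vector. Over all genes tested the groups did not overlap for 8.82% in that comparison, and in the other 5 for 10.1% (S545A against S534A), 5.66% (S534A against ∆GAG-BG), 5.05% (S545A against ∆GAG-BG), 4.87% (∆GAG-BG against control vector) and 7.65% (S534A against control vector) and the 1 of 54 is read against these shares. In that pairing the means of S545A and control vector were 254 ± 4.51 and 286 ± 6.87 CPM (SD, n = 3 each). The log2 fold change was -0.17 (SE 0.165, 95% interval -0.53 to 0.19, unadjusted p = 0.329 by edgeR in the model of all 4 groups, exact permutation p = 0.1, the smallest possible). When only those 2 groups were fitted, and the wide spread of FBN2 in ∆GAG-BG and S534A no longer entered, the unadjusted p was 0.0149 and the adjusted p 1.00. These tests count libraries 2 and 3 of a group as separate, though they are nearly alike in S545A and in control vector. TGFBR3 also goes against the label in control vector 2 and 3. The lowest libraries for FBN2, S534A 2 and ∆GAG-BG 1, also stood at the ends of the endoplasmic reticulum stress genes described below.

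FBLN1 (chr22:45502238-45601135, plus strand) was at 55.7, 50.8 and 51.6 CPM in control vector, 47.8, 53.2 and 50.3 in ∆GAG-BG, 47.9, 28.9 and 53.5 in S534A, and 54.0, 46.4 and 48.9 in S545A. The S534A 2 library lay below all others, and the 4 groups overlapped. FBLN1 had the smallest p among members in each comparison of S534A with S545A (log2 fold change 0.20, unadjusted p = 0.272), ∆GAG-BG (-0.22, 0.229) and control vector (-0.28, 0.129), by edgeR. Without S534A 2 these were -0.02, 0.0077 and -0.06 in the same order. Leaving out S534A 3 instead gave -0.39 (unadjusted p = 0.0430) against ∆GAG-BG and -0.46 (unadjusted p = 0.0211) against control vector, neither under 0.05 once adjusted.

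Of the cross-linking members, LOX (chr5:122063195-122078285, minus strand) was at 25.0, 29.9 and 34.0 CPM in control vector, 34.1, 32.1 and 30.5 in ∆GAG-BG, 23.0, 28.0 and 33.9 in S534A, and 25.4, 32.2 and 33.7 in S545A. The groups overlapped, and library 1 was the lowest in 3 of the 4. Its log2 fold changes were -0.19 to 0.12, with intervals from -0.53 to 0.46. LOXL2 (chr8:23297189-23425328, minus strand), which is expressed far above LOX, was at 461, 390 and 373 CPM in control vector, 435, 412 and 418 in ∆GAG-BG, 431, 453 and 374 in S534A, and 440.1, 385 and 389 in S545A. Its within-group SD was 0.122 on the log2 scale, with 25.2% of genes tested below it. LOXL2 had log2 fold changes of -0.06 to 0.05 and intervals between -0.29 and 0.27. A difference above 1.22-fold lies outside all 6 intervals, which, as for SPARC, count nearly alike libraries as separate ones. LOXL2 shares 120 exon bases with ENTPD4 on the same strand, and LOX shares 138 with SRFBP1 on the other.

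**Figure D5:**
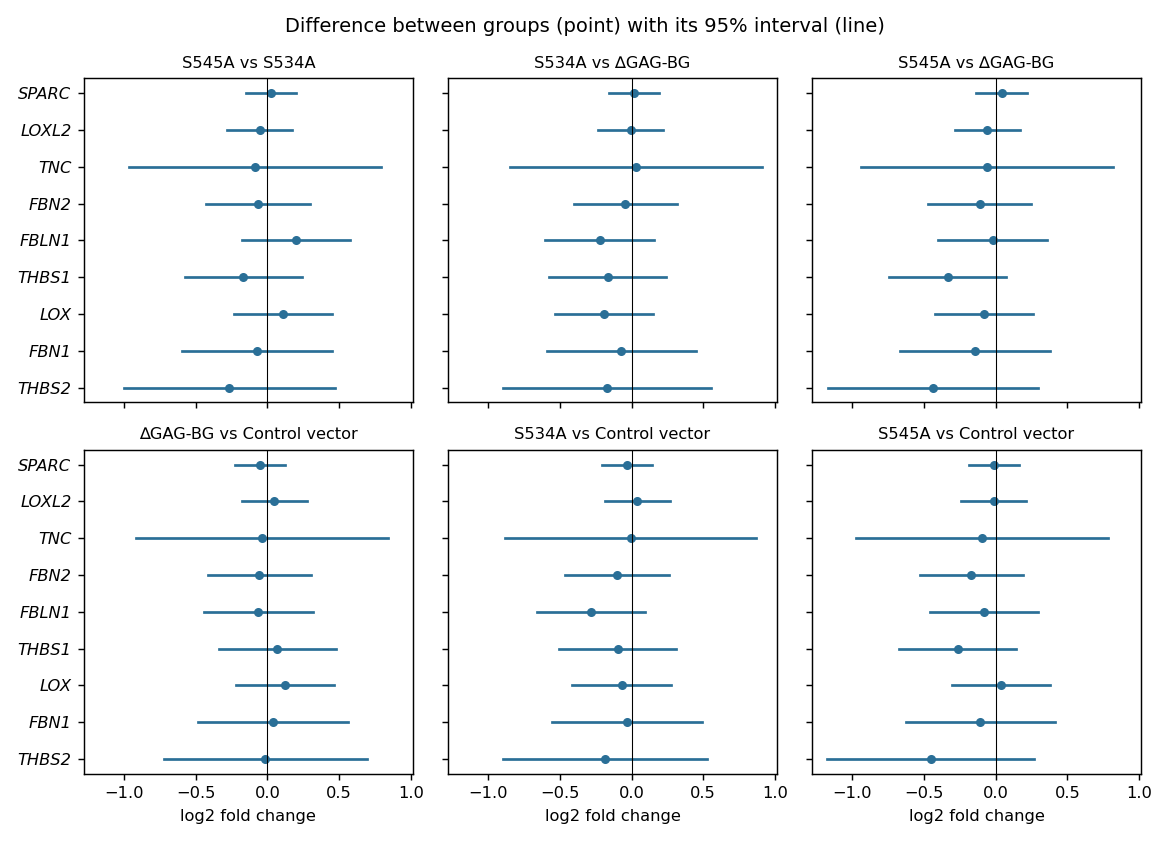
Log2 fold change (point) with its 95% interval (line) for 9 genes in the 6 comparisons, from edgeR's model of all 12 libraries. Every interval includes 0, and those of SPARC and LOXL2 are the narrowest while those of TNC and THBS2 are the widest.

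Some members varied together across libraries. Pearson correlations of log2(CPM + 1) over the 12 libraries, which include nearly alike pairs, differ in depth and are given without a p, were 0.79 for TNC with LOXL2 and for SPARC with FBN1, 0.73 for THBS1 with FBN1, 0.69 for SPARC with FBN2, 0.68 for FBN2 with FBLN1, and -0.70 for LOX with both TNC and LOXL2. Of all genes tested, those closest to SPARC were CAV1 (0.94), CTGF (0.94) and FGF5 (0.93), those closest to LOXL2 were FSCN1, UTP4 and ASUN (0.96 each), and those closest to TNC were TRAP1 (0.99), NOP14 (0.99) and AHCY (0.98). These neighbours were picked as the highest values among all genes tested. TNC did not overlap between the replicate 1 libraries and the others, so correlations with TNC also describe that split.

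The libraries also differed in endoplasmic reticulum stress genes, 10 of which were listed and tested. HSPA5, the chaperone BiP, was at 11864 CPM in ∆GAG-BG 1 and at 287 CPM in S534A 2, with the other 10 libraries at 1228 to 3906 CPM. The mean log2 level of the 10 genes was 8.73 in ∆GAG-BG 1 and 5.36 in S534A 2, against 6.22 to 7.29 elsewhere. ∆GAG-BG 1 was the lowest library for SPARC and FBN1 and next to lowest for FBN2, but the highest for LOX (34.1 CPM) and THBS2 (1.77 CPM). FBN1 was lowest in library 1 of every group, not only in ∆GAG-BG. S534A 2 was the lowest for FBN2 and FBLN1. The part of these 2 libraries' stress gene levels in the member levels was not tested.

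Other genes of the same families were listed alongside the members, and none had an adjusted p under 0.05. Of 17 other matricellular genes 9 were tested, the highest per length being CYR61 (2757 TPM) and CTGF (1443 TPM), both CCN family genes. At the unadjusted threshold 2 of the 9 were lower in S545A than in S534A, TGFBI (an integrin-binding protein named for its induction by TGF-β) and SPP1 (osteopontin). Over all genes tested 4.78% passed that threshold in this comparison, in either direction. SPP1 was higher in S534A than in ∆GAG-BG, beside 2.99% of all genes, and TGFBI was higher in S534A than in control vector, beside 3.45%. TGFBI was at 352, 1763 and 212 CPM in S534A and at 179 to 471 CPM in the 9 libraries of the other groups, so a single library, S534A 2, set its level. Its log2 fold change for S545A against S534A was -1.60 (unadjusted p = 0.0402 by edgeR) with that library and -0.14 (0.769) without it. For S534A against control vector TGFBI gave 1.54 (0.0468) with it and 0.08 (0.870) without it. SPP1 was at 18.2, 26.1 and 10.1 CPM in S534A and at 6.61 to 16.5 CPM elsewhere. SPP1 gave -0.81 (0.0497) for S545A against S534A and 0.87 (0.0396) for S534A against ∆GAG-BG, and -0.46 (0.249) and 0.52 (0.201) without S534A 2.

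Of 16 other elastic fiber genes 8 were tested. LTBP2, a latent TGF-β binding protein of microfibrils, led them at 61.6 TPM, followed by the fibulins EFEMP1 (46.7 TPM) and EFEMP2 (42.7 TPM). LTBP2 was higher in S534A (123, 228 and 134 CPM) than in control vector (103, 114 and 113 CPM), with no overlap, a log2 fold change of 0.56 (SE 0.187, unadjusted p = 0.0115, adjusted p = 0.871 by edgeR). Groups did not overlap for 7.65% of all genes tested in that comparison. Without S534A 2 the log2 fold change of LTBP2 was 0.23 (unadjusted p = 0.0430 by edgeR). EMILIN1, an elastin interface protein, passed the unadjusted threshold higher in S534A and in ∆GAG-BG than in control vector, but at 3 to 21 counts per library. Its call in ∆GAG-BG was lost under DESeq2 (unadjusted p = 0.0562) and without ∆GAG-BG 1, ∆GAG-BG 3, control vector 1 or control vector 3. The list counted 2 higher genes of 8 for S534A against control vector and 1 for ∆GAG-BG against control vector, beside 3.45% and 0.871% of all genes in either direction, with medians of 0.37 and 0.15 on the log2 scale beside the 0.0078 and 0.0030 of all genes.

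Of 14 other cross-linking and collagen-modifying enzymes 12 were tested, led by TGM2, transglutaminase 2 (1555 TPM), PLOD2 (326 TPM) and PLOD1 (134 TPM), both lysyl hydroxylases. The prolyl hydroxylase subunits P4HA1 and P4HA2 were lower in S545A than in S534A at the unadjusted threshold, by edgeR. They were 2 of the 12, beside 4.78% of all genes in that comparison. P4HA1 was at 35.1, 82.4 and 36.1 CPM in S534A and 36.1, 33.5 and 31.7 CPM in S545A (log2 fold change -0.60, unadjusted p = 0.0462), and without S534A 2 it gave -0.07 (0.565). P4HA2 gave -0.51 (unadjusted p = 0.0194) and, without S534A 2, -0.22 (0.140). Of 10 receptors of these proteins 7 were tested, led by CALR (1284 TPM), SDC4 (206 TPM) and ITGB5 (151 TPM). ITGB3, the integrin subunit that pairs with the αv chain, was lower in S534A (15.96, 15.1 and 18.0 CPM) than in ∆GAG-BG (19.0, 19.2 and 20.9 CPM), with no overlap. Its log2 fold change was -0.28 (unadjusted p = 0.0140, adjusted p = 0.890 by edgeR). ITGB3 was the 1 receptor of 7 past the unadjusted threshold, beside 2.99% of all genes in that comparison. Groups did not overlap there for 5.66% of all genes tested.

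The stress genes, by the same test, had 5 of 10 lower in S534A than in ∆GAG-BG at the unadjusted threshold, beside 2.99% of all genes, the largest being DDIT3 (log2 fold change -2.97, unadjusted p = 0.0320). Both ∆GAG-BG 1 and S534A 2, the libraries at the ends of these genes, are in that comparison. Of the 3 fibroblast markers tested, COL1A1 was lower at that threshold in S545A than in ∆GAG-BG (9.25 ± 0.690 against 14.3 ± 5.08 CPM, SD, n = 3 each). COL3A1 was lower at that threshold in S534A and in S545A than in control vector, with 0, 22 and 31 counts in control vector, 11, 0 and 0 in ∆GAG-BG, 3, 0 and 0 in S534A, and 0 in all S545A libraries. No other marker passed the unadjusted threshold in any comparison. The share of all genes past that threshold was 1.10% for S545A against ∆GAG-BG, 3.45% for S534A against control vector and 1.05% for S545A against control vector.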

How the data were processed

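RNA was extracted with Trizol for 12 HEYA8 libraries and sequenced as paired reads from a directional kit. The authors trimmed reads with Trim Galore 0.4.5 and deposited 1 table of raw counts per gene from featureCounts. The submitters' processing notes also name STAR 2.4, SAMtools 1.2 and mouse builds, but the table holds human genes with GRCh38 coordinates (33622 of 56269 match GENCODE 29). The annotation release and strand setting are not given in the sources used here, and strand-blind counting would blur antisense partners.

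Counts were filtered (edgeR filterByExpr, minimum count 10), TMM-scaled and entered, all 12 libraries together, in edgeR's robust quasi-likelihood test (edgeR 4.0.16, R 4.3.3), which left 8 residual degrees of freedom. P-values were adjusted by Benjamini-Hochberg over 16069 genes. TPM used the table's gene lengths. Alternatives were DESeq2 1.42.0, limma-voom (limma 3.58.1), other scalings and filters, the replicate block and left-out libraries. Scripts were tested on simulated counts of independent libraries with known changes planted. That simulation held no nearly alike libraries and no replicate 1 split, so it does not show how the tests behave with these. Deviations of same-numbered libraries from their group means correlated positively for all 3 numbers only in S545A against control vector (0.73, 0.48 and 0.48). S545A against S534A gave 0.26, -0.31 and 0.54, and S534A against control vector 0.23, -0.23 and 0.47. Libraries 2 and 3 are nearly alike in S545A and in control vector, so the values of that comparison cannot show which libraries pair.

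The members, lists and tests were chosen with earlier results of these data known. Named genes were every member and, per list, the 3 highest in TPM and up to 4 with the smallest unadjusted p under 0.05.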

Additional observations from a re-analysis of the deposited data

How the results depend on the processing

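Over 23 settings and 101 fits no member had an adjusted p under 0.05, the smallest being 0.163. Of 95 alternative counts of members at an unadjusted p under 0.05, 85 stayed at 0 and 10 gave 1. With only replicates 2 and 3 of every group, chosen after seeing the data, the count was 1 (THBS1) for S534A against ∆GAG-BG, S545A against ∆GAG-BG and ∆GAG-BG against control vector. With libraries 2 and 3 of ∆GAG-BG and control vector left out, which leaves 1 library in each of these groups, assumed to vary like the others, it was 1 (THBS1) for ∆GAG-BG and for S545A against control vector, and with only the 2 groups compared it was 1 (FBN2) for S545A against control vector. Leaving out 1 library gave 0 to 1 member for S534A against ∆GAG-BG, S545A against ∆GAG-BG and S534A against control vector. The replicate block gave 0 members in all 6 comparisons and so changed no call, though no label says that the numbers pair libraries.

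Of 281 alternative gene fold changes 203 kept direction and side of the threshold, 60 lost their unadjusted call, 8 gained one and 10 turned sign. The lost calls were those of TGFBI (19), SPP1 (14), P4HA1 (9), EMILIN1 (8), ITGB3 (5), P4HA2 (4) and LTBP2 (1), over 154 alternatives run for these genes. FBLN1 without S534A replicate 2 gave -0.0231 (S545A against S534A, where leaving out single replicates gave -0.0231 to 0.38) and 0.0077 (S534A against ∆GAG-BG, likewise -0.39 to 0.0077). THBS1 with libraries 2 and 3 of ∆GAG-BG and control vector left out gave 0.32 for S534A and 0.15 for S545A against ∆GAG-BG, and -0.66 for ∆GAG-BG against control vector. For the last comparison it gave -0.10 with libraries 2 and 3 summed, and -0.0665 to 0.25 with single replicates left out. LOX for ∆GAG-BG against control vector gave -0.0345 with only replicates 2 and 3. The cause was not tested. With 3 libraries per group, some nearly alike, precision is limited: the 95% intervals extended from 0.18 (SPARC) to 0.88 (TNC) either side of the estimate on the log2 scale.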
